A study of Mus musculus with 2 samples.

Results

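Promoters that showed an open-chromatin peak in one biological replicate of newborn mouse midbrain and not in the other are described here. DNase-seq treats nuclei with the nuclease DNase I and sequences the released ends, so that cuts pile up where DNA is free of nucleosomes. Midbrain of B6NCrl mice on postnatal day 0, males and females together, made up 1 group of 2 biological replicates, processed with a nuclei protocol that names crosslinking. No treatment or genetic change is recorded, and the biosamples of the 2 libraries lead back to a single donor entry, so the spread between them may be partly technical. A promoter was counted as open in a library when a peak of 150 bp in that library's own list lay no more than 500 bp from one of the annotated transcription start sites of the gene. Of 20807 autosomal protein-coding genes of GENCODE M21, 1474 (7.08%) were open in replicate 1 alone. Another 13132 were open in both replicates, 163 in replicate 2 alone and 6038 in neither. These 1474 genes made up 10.1% of the 14606 genes (70.2% of all) open in replicate 1. Replicate 2 had a peak at 13295 genes (63.9%).

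The peak lists that chose these promoters differ in length: replicate 1 held 222935 autosomal peaks, 1.87 times the 119469 of replicate 2. Hotspots, the wider intervals deposited beside the peaks, numbered 201710 in replicate 1 and 108525 in replicate 2. Each peak carries a whole-number signal in column 7 of the list, which is defined nowhere in the sources used here and was not scaled between libraries. Over autosomal peaks it had a median of 44 (interquartile range 32 to 66) in replicate 1, against 18 (12 to 29) in replicate 2. Read depth is unknown. A missing replicate 2 peak therefore means that none was listed there, and more reads and more open chromatin in replicate 1 cannot be told apart. Because the promoters were chosen by the peak lists themselves, all shares below are descriptions with 95% Wilson intervals that cover counting error only, and no test was made.

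The tissue label was checked at the promoters of marker genes. The engrailed genes En1 and En2, the paired-box gene Pax2 and the homeobox gene Otx2, which specify midbrain, and the neuronal genes Rbfox3, Syt1, Snap25, Elavl4 and Tubb3 were open in both replicates. En1 had a column 7 of 108 in replicate 1 and 36 in replicate 2. Of the dopaminergic markers, Pitx3 (94 and 27) and Ddc (48 and 13) were open in both, Nr4a2 and Slc6a3 in replicate 1 alone, and Th, encoding the rate-limiting enzyme of dopamine synthesis, in neither. Globin genes Hbb-bs and Hba-a1 and the erythroid factor gene Klf1 had a promoter peak in neither replicate. Markers of vessels, microglia and other glia were mixed. The endothelial genes Kdr (68 and 20) and Tek (35 and 10) were open in both, Cldn5 in replicate 1 alone, and Pecam1 and Cdh5 in neither. The microglial genes C1qb, Csf1r, P2ry12 and Tmem119 were open in replicate 1 alone, and Aif1, C1qa and Cx3cr1 in neither. Mbp and Olig2 of oligodendrocytes and Gfap, Aqp4 and Gja1 of astrocytes were open in both, Sox10 and Aldh1l1 in replicate 1 alone, and Mog in neither. Tissue is a mixture, and fewer cells of a type and less open chromatin per cell cannot be told apart.

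Mammalian promoters fall broadly into those that lie in CpG islands, which are open in most tissues and serve housekeeping and many developmental genes, and those with few CpG dinucleotides, which more often serve genes of 1 cell type. Islands keep their CpG because it is mostly unmethylated there, while elsewhere methylated CpG has been lost over evolution. Many developmental regulators, Hox genes among them, lie in islands that Polycomb proteins occupy where the gene is not expressed.

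Sequences under the strongest replicate 1 peak show the range of CpG content among these promoters. Each is the stretch of the peak outside annotated exons, in mm10 (RefSeq GRCm38.p6 sequence), written 5′ to 3′ on the strand of the gene, with every CpG in capitals. A first set holds regulators with a high column 7: Hoxa2 (chr6:52164832-52164945, minus strand) and Hoxa4 (chr6:52191896-52192045, minus), homeobox genes that pattern the hindbrain and neck, Pax3 (chr1:78197135-78197245, minus), a paired-box factor of the dorsal neural tube, and Esrrg (chr1:187997696-187997826, plus), an orphan nuclear receptor.
Hoxa2: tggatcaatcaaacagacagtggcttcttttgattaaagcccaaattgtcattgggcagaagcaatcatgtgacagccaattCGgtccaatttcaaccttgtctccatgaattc
Hoxa4: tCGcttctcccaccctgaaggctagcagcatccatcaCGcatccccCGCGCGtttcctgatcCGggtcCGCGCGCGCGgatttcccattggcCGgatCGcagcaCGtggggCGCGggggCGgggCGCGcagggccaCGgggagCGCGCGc
Pax3: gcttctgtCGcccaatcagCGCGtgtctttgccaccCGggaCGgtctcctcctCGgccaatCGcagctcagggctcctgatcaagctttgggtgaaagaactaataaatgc
Esrrg: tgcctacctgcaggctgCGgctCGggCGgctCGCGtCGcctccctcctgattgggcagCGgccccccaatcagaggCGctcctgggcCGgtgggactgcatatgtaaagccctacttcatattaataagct
Hoxa4 showed 23 CpGs in 150 bp, whereas Hoxa2, with the same column 7 of 96, showed 1 in 114 bp. The whole 150 bp peak of Hoxa2, exon included, held 4. Within 500 bp of the 5′ end of the gene, the observed/expected CpG ratio was 0.689 at Hoxa2 and 0.919 at Hoxa4. The next set holds genes of midbrain neurons and of nearby tissue: Nr4a2 (chr2:57124116-57124265, minus), a nuclear receptor needed for dopaminergic neurons, Neurog2 (chr3:127632696-127632845, plus), a proneural factor, Foxc1 (chr13:31806456-31806605, plus), a forkhead factor of meninges and pericytes, and Slc6a3 (chr13:73536636-73536746, plus), the dopamine transporter.
Nr4a2: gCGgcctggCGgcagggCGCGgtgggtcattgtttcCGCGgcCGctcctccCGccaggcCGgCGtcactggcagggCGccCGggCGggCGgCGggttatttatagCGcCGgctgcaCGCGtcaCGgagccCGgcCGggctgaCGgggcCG
Neurog2: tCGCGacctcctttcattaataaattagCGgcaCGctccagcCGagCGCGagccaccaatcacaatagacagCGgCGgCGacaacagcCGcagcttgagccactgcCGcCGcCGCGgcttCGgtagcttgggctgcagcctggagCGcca
Foxc1: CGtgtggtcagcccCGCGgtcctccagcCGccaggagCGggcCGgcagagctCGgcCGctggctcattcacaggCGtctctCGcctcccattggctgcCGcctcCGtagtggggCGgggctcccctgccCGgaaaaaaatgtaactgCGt
Slc6a3: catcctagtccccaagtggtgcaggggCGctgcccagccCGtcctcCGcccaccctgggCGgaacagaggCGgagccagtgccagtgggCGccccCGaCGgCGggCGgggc
All 4 held many CpGs, with 24, 17 and 15 CpGs in the 150 bp of Nr4a2, Neurog2 and Foxc1 and 10 in the 111 bp of Slc6a3. The last set holds genes of glia: Aldh1l1 (chr6:90550656-90550788, plus), a folate enzyme of astrocytes, S100b (chr10:76253716-76253852, plus), a calcium-binding protein of astrocytes, Cd68 (chr11:69666176-69666325, minus), a lysosomal protein of macrophages and microglia, and C1qb (chr4:136886236-136886385, minus), a complement subunit made by microglia.
Aldh1l1: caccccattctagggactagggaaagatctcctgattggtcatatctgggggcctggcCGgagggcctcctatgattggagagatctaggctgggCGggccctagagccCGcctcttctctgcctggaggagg
S100b: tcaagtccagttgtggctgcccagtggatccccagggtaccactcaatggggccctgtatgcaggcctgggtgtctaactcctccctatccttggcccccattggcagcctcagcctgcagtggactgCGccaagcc
Cd68: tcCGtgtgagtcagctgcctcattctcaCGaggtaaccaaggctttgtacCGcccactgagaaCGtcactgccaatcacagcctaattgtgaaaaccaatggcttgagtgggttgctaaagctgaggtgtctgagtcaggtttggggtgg
C1qb: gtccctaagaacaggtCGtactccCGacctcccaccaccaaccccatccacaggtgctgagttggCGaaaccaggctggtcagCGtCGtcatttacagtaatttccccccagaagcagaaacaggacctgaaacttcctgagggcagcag
These held 3, 1, 4 and 5 CpGs. On either strand, the word CCAAT of the NF-Y box occurred 3 times in the stretch of Hoxa2, 2 times each in those of Pax3, Esrrg, Aldh1l1 and Cd68, and in none of Nr4a2, Slc6a3 and C1qb. A match describes the letters and is not evidence of binding.

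The strongest replicate 1 peak at these promoters was usually of ordinary strength for its list. Its column 7 had a median of 41 (quartiles 32 and 55, range 11 to 120), against 119 (97 and 132) at the 13132 promoters open in both. Within the replicate 1 list these medians stood at the percentiles 43.9 and 96.6. Most promoters in this set, 1036 of 1474 (70.3%, 67.9 to 72.6), had a single replicate 1 peak, against 3285 of 13132 (24.3 to 25.8%) of those open in both, and 138 had 3 or more.

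Column 7 and the share without a replicate 2 peak ran in opposite directions over most of the range. Of the genes with a replicate 1 peak whose column 7 was 21 to 30, 82.3% were open in replicate 1 alone. The share was 57.3% at 41 to 50, 22.4% at 61 to 70, 10.04% at 71 to 80 and 0.158% above 100. Above 90 it was 30 of 10508 genes, or 0.286%. Of these 30, 6 were Hox genes, out of 7 Hox genes above 90 in all.

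**Figure D1:**
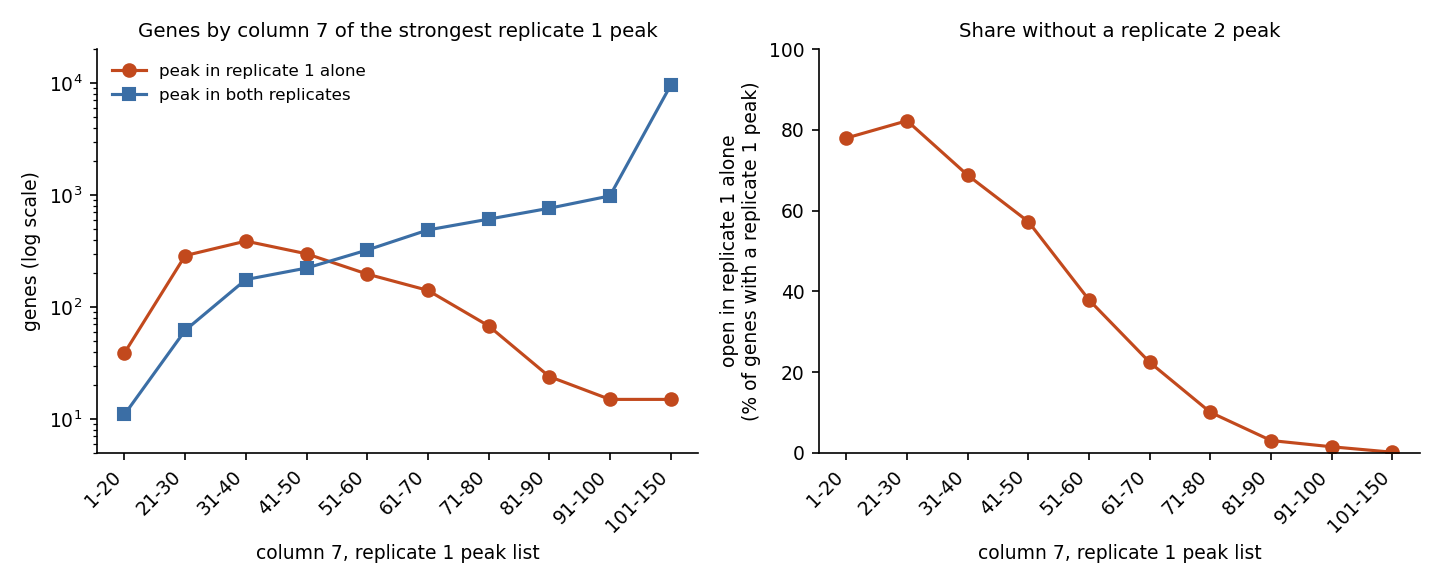
Genes with a replicate 1 peak, binned by column 7 of the strongest one. Left, the number open in replicate 1 alone (circles) and in both replicates (squares) on a log scale. Right, the percentage open in replicate 1 alone, which was 82.3% at 21 to 30 and 0.158% above 100.

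Among the 20 promoters with the highest column 7, the first 5 lay beside a replicate 2 peak that missed the 500 bp limit. They were the predicted gene Gm10065 (120), the forkhead factor gene Foxo6 (115), Cbln3 (112), which encodes a cerebellin secreted by granule cells, the ETS factor gene Etv1 (111) and Pax5 (110), a paired-box factor of the midbrain-hindbrain boundary and of B cells. The nearest replicate 2 peak was 516 bp from a start site for Gm10065, 567 bp for Foxo6, 504 bp for Cbln3, 575 bp for Etv1 and 510 bp for Pax5. At Gm10065, Cbln3 and Pax5 a replicate 2 peak even overlapped the strongest replicate 1 peak. All 5 also had a replicate 2 hotspot within 500 bp, as did Rimbp3 (103, 553 bp).

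Other strong promoters had no replicate 2 peak near them. Esrrg had a column 7 of 109, and its nearest replicate 2 peak lay 16668 bp away. Pax3 had 106 and a distance of 5382 bp, Mt2, encoding a metallothionein, 104 and 5119 bp, and Notch1, encoding a receptor that keeps neural progenitors undifferentiated, 104 and 2797 bp. Tshz3, a teashirt zinc finger factor, had 97 and 19139 bp. Further members of the 20 were 1600014C23Rik (105), Hoxa5 (102), the protease gene Adamts12 (101), the proton pump subunit gene Atp6v1e2 (101), Wfikkn2 (100), the glycosyltransferase gene Galnt15 (99), Sall3 (98), a spalt zinc finger factor, and Hoxa2 (96). All 20 also remained when the replicate 1 list was shortened to its 122813 strongest peaks, the length of the replicate 2 list, as any promoter with a column 7 above 42 does by construction. The shortened list left 699 of the 1474 promoters (47.4%), or 3.36% of all genes.

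Few of these promoters had a replicate 2 hotspot, which the lack of a replicate 2 peak largely fixes. They lay within 500 bp of a start site at 45 of 1474 genes (3.05%, 2.29 to 4.06). Genes open in neither, which also lack a replicate 2 peak, had one at 21 of 6038 (0.348%, 0.228 to 0.531). The share was 99.9% (99.86 to 99.96) of genes open in both and 64.1% of all genes. Replicate 1 hotspots lay at 1466 of the 1474 (99.5%, 98.9 to 99.7), which the rule likewise largely fixes. The replicate 1 hotspot was narrow, with a median width of 249 bp against 990 bp at promoters open in both. It fell in the strongest class, for which the deposited −log10 q is 100, at 31.0% (28.7 to 33.4) of the promoters open in replicate 1 alone with a hotspot and at 96.0% (95.7 to 96.4) of those open in both.

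Of the 45 replicate 2 hotspots, 26 were of the strongest class, and nearly all belonged to genes whose nearest replicate 2 peak lay just past the limit. The widest, 1151 bp, was at Fgf11, an intracellular fibroblast growth factor homolog, whose nearest replicate 2 peak lay 1019 bp away. The next widest lay at 4930535I16Rik (1052 bp), the sarcomere gene Actn3 (916 bp), Kdelc2 (863 bp), Gm43738 (861 bp) and Ndufa13 (816 bp), a subunit of respiratory complex I. With the nearest replicate 2 peak past 500 and up to 600 bp away, 29 of 64 genes (45.3%, 33.7 to 57.4) had a replicate 2 hotspot, against 11 of 51 (21.6%, 12.5 to 34.6) of the genes open in neither at that distance. At 601 to 750 bp it was 13 of 79, at 751 to 1000 bp 2 of 84, and beyond 1000 bp 1 of 1247 genes, which is Fgf11. The distance itself had a median of 5710.5 bp (quartiles 1723 and 16494) and reached 738556 bp at the olfactory receptor gene Olfr133, named here after its value was seen, and 227 genes (15.4%, 13.7 to 17.3) had a replicate 2 peak within 1000 bp.

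**Figure D2:**
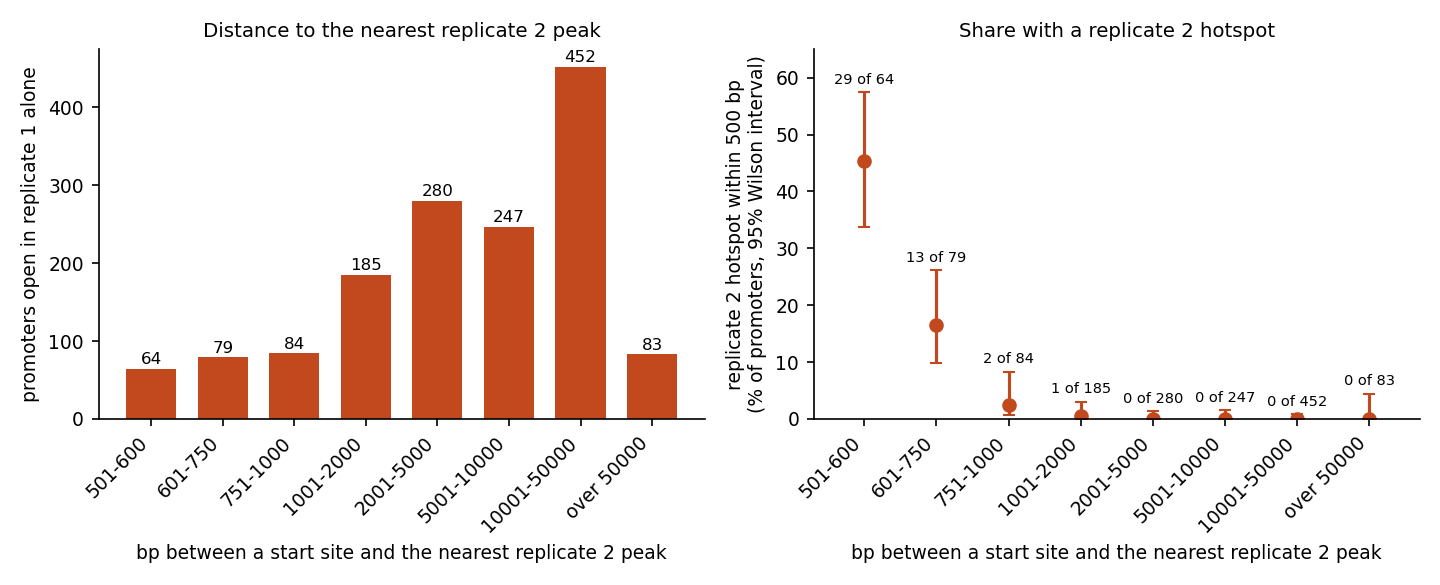
Promoters open in replicate 1 alone by the distance in bp between a start site and the nearest replicate 2 peak. Left, the number of promoters. Right, the percentage with a replicate 2 hotspot within 500 bp of a start site, with 95% Wilson intervals, which was 45.3% in the nearest class and 0 of 280 at 2001 to 5000 bp.

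The 64 genes whose nearest replicate 2 peak lay past 500 and up to 600 bp away had a median column 7 of 57 in replicate 1 and a median CpG ratio of 0.518. The 108 genes open in both whose nearest replicate 2 peak lay in the last 100 bp before the limit had 62 and 0.538. Just inside the rule stood Cyp26b1, the nearest, encoding a retinoic acid-degrading enzyme, the zinc finger gene Sp6 (503 bp) and Cbln3 (504 bp). Just outside it stood the homeobox gene Nkx2-3 (500 bp), the exonuclease gene Isg20 (499 bp) and the laminin gene Lamb1 (499 bp), which were open in both. On the side of replicate 1, 68 genes owed their place to a single peak in the last 100 bp before the limit.

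Promoters open in replicate 1 alone held fewer CpG dinucleotides than those open in both. The observed/expected CpG ratio in the 500 bp on each side of the 5′ end of the gene had a median of 0.342 (quartiles 0.197 and 0.581), against 0.720 (0.559 and 0.836) at promoters open in both. Promoters open in replicate 2 alone had a median of 0.279 and those open in neither 0.163. A ratio under 0.4, which marks CpG-poor promoters here, was found at 57.5% (55.0 to 60.0) of promoters open in replicate 1 alone and at 13.4% (12.8 to 14.0) of those open in both. A ratio of at least 0.6 was found at 23.5% (21.4 to 25.7) and 70.1% (69.3 to 70.9). Median GC content was 53.4% against 58.7%. The 150 bp peak itself held a median of 5 CpGs against 13, and none at all in 7.87% against 0.678% of promoters.

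Peak strength and CpG content move together, so the ratio was also set side by side at like column 7. Promoters open in replicate 1 alone had the lower median ratio in each of the 10 column 7 bins. At 41 to 50 it was 0.383 at 299 genes open in replicate 1 alone and 0.473 at 223 genes open in both. At 51 to 60 the medians were 0.392 and 0.529, at 71 to 80 they were 0.493 and 0.568, and at 91 to 100 they were 0.277 (15 genes) and 0.645.

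Over deciles of the CpG ratio the share open in replicate 1 alone was 5.77% of all genes in the lowest decile, 13.7% in decile 3, 13.4% in decile 4 and 2.11% in the highest. Genes with the fewest CpGs seldom had a peak at all: 1800 of 2081 in the lowest decile had none in either replicate. Of the genes that did have a replicate 1 peak, 48.2% in the lowest decile and 2.14% in the highest were open in replicate 1 alone. The lowest ratios belonged to the olfactory receptor genes Olfr1509, Olfr810, Olfr1314 and Olfr536, of which the first 3 had no CpG in the window. At the upper end stood the bone morphogenetic protein gene Bmp2 (1.08), the homeobox gene Barhl2 (1.07), the mesodermal factor gene Tcf15 (1.06) and Shisa6 (1.05), a regulator of glutamate receptors.

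**Figure D3:**
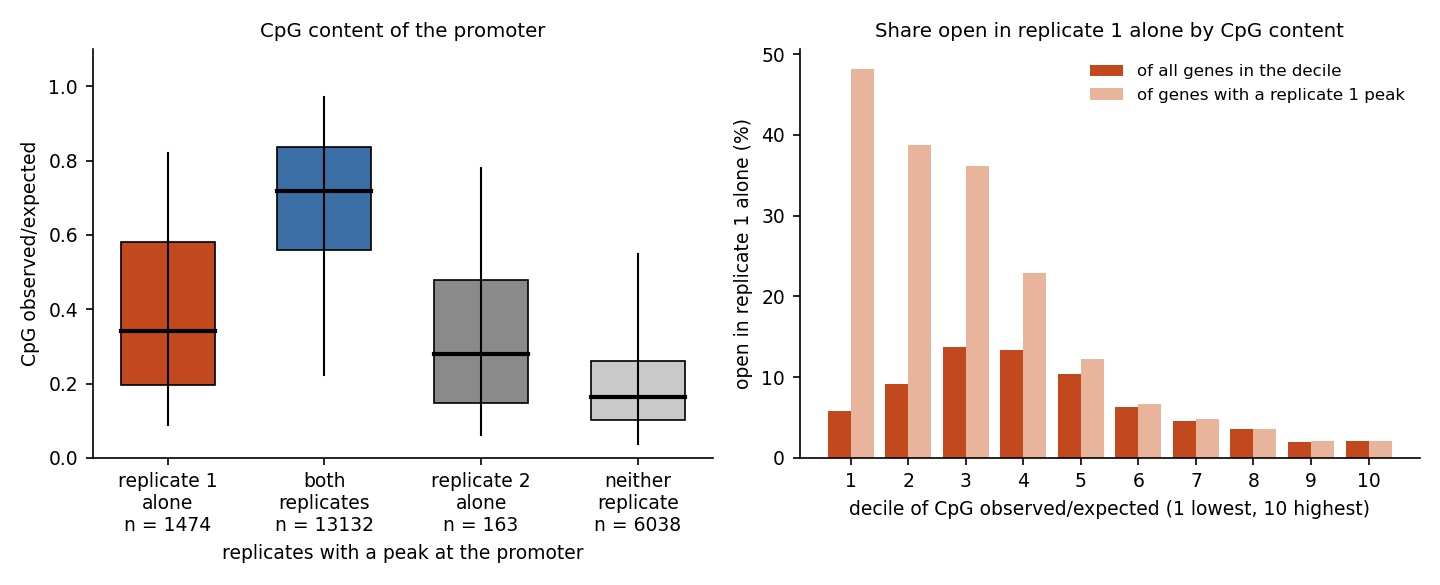
CpG observed/expected ratio within 500 bp of the 5′ end of the gene. Left, box (quartiles), line (median) and whiskers (5th and 95th percentiles) for each promoter state, with medians of 0.342 for replicate 1 alone and 0.720 for both. Right, percentage open in replicate 1 alone in each decile of the ratio, dark bars of all genes and light bars of genes with a replicate 1 peak. Light bars stand at 48.2% in decile 1 and 2.14% in decile 10.

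Gene groups were read against the 7.08% of all genes. The 47 groups were 18 lists of cell type and patterning genes and 29 classes drawn by gene symbol, and 31 of them had a share above that value. They took in 651 of the 1474 genes, and the other 823 belonged to none. Groups overlap, and members of a cluster can share regulatory DNA, so they are not independent.

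Hox genes, which give cells of hindbrain, spinal cord and trunk their position along the body axis and are laid out in 4 clusters, had the highest share. Of 39 Hox genes 21 (53.8%, 38.6 to 68.4) were open in replicate 1 alone, 4 in both, 1 in replicate 2 alone and 13 in neither. These 21 were 84.0% of the 25 with a replicate 1 peak, and 16 of them stayed with the shortened replicate 1 list. Among the Hox genes of paralog groups 1 and 2 open in replicate 1 alone, Hoxa2 had a column 7 of 96, Hoxb2 of 94, Hoxd1 of 54 and Hoxb1 of 28. In groups 3 to 5, 6 of 10 genes were open in replicate 1 alone, namely Hoxa5 (102), Hoxa4 (96), Hoxb4 (93), Hoxb3 (87), Hoxd4 (69) and Hoxd3 (50). Hox genes of groups 1 to 5, which act towards the head, gave 11 of 15 genes with a median column 7 of 93, and those of groups 6 to 13 gave 10 of 24 with a median of 47.5. The highest of the second set were Hoxc10 (65), Hoxa10 (61) and Hoxd10 (58), which pattern the trunk and limbs.

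Peak numbers across the clusters were read against the 1.87-fold longer list of replicate 1. The Hoxa cluster held 25 peaks in replicate 1 and 5 in replicate 2, the Hoxb cluster 34 and 18, and the Hoxd cluster 13 and 8. The Hoxc cluster held 11 in replicate 1 and 18 in replicate 2. The excess of replicate 1 peaks was thus above the ratio of the lists in Hoxa, close to it in Hoxb, below it in Hoxd and turned round in Hoxc. None of the 21 genes had a replicate 2 hotspot within 500 bp, and for 19 of them the nearest replicate 2 peak was over 1000 bp away. Over all 1474 promoters the same held little differently, with a hotspot at 3.05% and that distance at 84.6%. The Hox genes open in both were Hoxb5 (98 in replicate 1 and 38 in replicate 2), Hoxa7 (86 and 44), Hoxc4 (73 and 12) and Hoxc5 (65 and 30). Unlike the set as a whole, these promoters were CpG-rich, with a median ratio of 0.652 over the 21. So were those of other homeobox genes open in replicate 1 alone, with a median of 0.711, and all 39 Hox genes together had 0.678. Hox genes beyond the 3 strongest of each list were named after their values were seen.

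Several other groups of developmental regulators were also frequent. Homeobox genes outside the Hox clusters were open in replicate 1 alone at 28 of 157 (17.8%, 12.6 to 24.6), led by Pax3 (106) and Hlx (79), a factor of gut and liver mesenchyme. A list of Pax, Sox and Fox factors gave 16 of 68 (23.5%, 15.0 to 34.9), led by Foxo6, Pax5 and Pax3. T-box, Gata and Runx genes gave 5 of 22 (22.7%, 10.1 to 43.4), with Tbx15 (41) the highest. Ligands of the Wnt, Fgf, Bmp and Tgf families gave 15 of 71 (21.1%, 13.2 to 32.0), led by Bmp2 (72), Wnt3 (67) and Gdf10 (64). With the shortened list, which left 47.4% of the whole set, these became 15, 9, 0 and 9 genes. Not all regulator classes were frequent. Basic helix-loop-helix genes gave 10 of 99 (10.1%, 5.58 to 17.6), an interval that holds the 7.08% of all genes, and zinc finger genes, given below, 1.91%.

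The clustered protocadherins, adhesion proteins of which each neuron expresses its own combination, lie in an alpha, a beta and a gamma cluster on chromosome 18. Of 57 gene entries 28 (49.1%, 36.6 to 61.7) were open in replicate 1 alone, 23 in both and 6 in neither. The 28 were 54.9% of the 51 with a replicate 1 peak. Their column 7 was low, with a median of 35.5, and the highest were Pcdhgc5 (64), Pcdhga9 (45) and Pcdhga1 (43). Of all genes whose strongest replicate 1 peak had a column 7 of 31 to 40, 68.8% were open in replicate 1 alone. With the shortened list 3 of the 28 stayed, against 16 of the 21 Hox genes. They raise the share on chromosome 18 to 12.5%, which is 7.90% without them, while the other chromosomes lay between 5.39% and 9.15%. The alpha cluster held 35 peaks in replicate 1 and 25 in replicate 2, the beta cluster 22 and 14, and the gamma cluster 39 and 26, each a smaller excess than the 1.87-fold of the lists. These exons resemble each other in sequence, and how the authors treated reads with several matches was not stated.

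Genes shared by all neurons and genes of single neuron types were counted in separate lists. None of 15 pan-neuronal genes was open in replicate 1 alone, with an interval of 0 to 20.4% that holds the 7.08% of all genes, and all 15 were open in both. Of 19 genes of dopaminergic neurons, 5 (26.3%, 11.8 to 48.8) were open in replicate 1 alone and 10 in both. They were Nr4a2 (87), whose nearest replicate 2 peak lay 57733 bp away, Dlk1 (73), encoding a membrane protein related to Notch ligands, Lmx1a (34), a homeobox factor that specifies these neurons, Aldh1a1 (33), a retinoic acid-producing enzyme, and Slc6a3 (31). With the shortened list 2 of the 5 remained, near the 47.4% of the whole set. Of 13 genes of serotonergic and cholinergic neurons 4 were open in replicate 1 alone, with Isl1 (67), a motor neuron factor, the highest, followed by Slc18a3 (36), the vesicular acetylcholine transporter, and Slc6a4 (30), the serotonin transporter. Of 18 GABAergic midbrain genes 3 were (interval 5.84 to 39.2%, which holds 7.08%), namely Slc32a1 (78), the vesicular GABA transporter, Nkx6-2 (53) and Dlx6 (51). Among 17 progenitor genes 4 were, namely Notch1 (104), Neurog2 (69), Neurog1 (56) and Prom1 (41), and the other 13 were open in both. In the forebrain patterning list it was 3 of 16 (interval 6.59 to 43.0%, which also holds it), among them Emx2 (59) and Dlx6.

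Genes of glia, vessels and blood were counted in the same way. Of 20 genes of microglia and macrophages, the resident immune cells of the brain, 7 (35.0%, 18.1 to 56.7) were open in replicate 1 alone, 3 in both and 10 in neither. The 7 were the lysosomal gene Cd68 (66), the complement genes C1qc (46) and C1qb (28), Tmem119 (45), the purine receptor gene P2ry12 (36), Csf1r (33), the receptor microglia need to survive, and Trem2 (22), a lipid receptor. Their median column 7 was 36, and 3 of the 7 stayed with the shortened list, again near 47.4%. They made up 70% of the 10 genes of the list with a replicate 1 peak. Of all genes whose strongest replicate 1 peak had a column 7 of 31 to 40, 68.8% were open in replicate 1 alone. Astrocyte genes gave 3 of 12, Aldh1l1 (80), S100b (65) and the connexin gene Gjb6 (43), with a median of 65, and the other 9 were open in both. Oligodendrocyte genes gave 2 of 13 (interval 4.33 to 42.2%), the proteoglycan gene Cspg4 (55) and Sox10 (36), the factor that drives this lineage. Pericyte and meningeal genes gave 6 of 15 (interval 19.8 to 64.3%), led by Foxc1 (78), Pdgfrb (57), the receptor that recruits pericytes, and Foxd1 (52). Endothelial genes gave 3 of 15 (interval 7.05 to 45.2%), Flt1 (51), Sox18 (38) and the tight junction gene Cldn5 (34). Erythroid genes gave 0 of 11 (interval 0 to 25.9%), of which 8 had a peak in neither. The intervals of the oligodendrocyte, endothelial and erythroid lists hold the 7.08% of all genes. Whether the mix of cells differed between the libraries was not tested.

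Broader immune and matrix classes were drawn by gene symbol. Interferon-induced and guanylate-binding genes gave 18 of 70 (25.7%, 16.9 to 37.0), led by Oas1e (66), Ifit3b (64) and Gbp10 (63). Immunity receptor and antigen genes gave 41 of 241 (17.0%, 12.8 to 22.3), led by Klrg2 (82), Tlr3 (80), a sensor of double-stranded RNA, and Fcgrt (78). Cytokine and chemokine genes gave 33 of 204 (16.2%, 11.8 to 21.8), led by Tnfsf15 (70), Il12a (68) and Ccl7 (65), and collagen and matrix genes 22 of 117 (18.8%), led by Adamts12 (101), Adamts9 (83) and Adamtsl3 (68). With the shortened list these became 6, 20, 16 and 10 genes, read against 3.36% of all genes. The immunity receptor and cytokine classes had median CpG ratios of 0.211 and 0.253, in decile 3 of all genes. In that decile 13.7% of genes were open in replicate 1 alone, a share inside both intervals. Interferon-induced genes (0.184, same decile) had an interval above it. Of the 42 with a replicate 1 peak, 42.9% were open in replicate 1 alone, against 36.1% of such genes in decile 3. The median column 7 of those 18 was 34, and of all genes at 31 to 40, 68.8% were open in replicate 1 alone. Collagen and matrix genes (0.480, interval 12.8 to 26.8%) fell in decile 5, with 10.3%.

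Sensory receptor genes were seldom open in either library. Where replicate 1 listed a peak, replicate 2 mostly did not, and the reverse often held too. Olfactory receptors gave 65 of 1128 (5.76%, 4.55 to 7.28, an interval that holds the 7.08% of all genes). Another 9 were open in both, 11 in replicate 2 alone and 1043 in neither. The 65 were 87.8% of the olfactory receptor genes with a replicate 1 peak. Their median column 7 was 26. Of all genes whose strongest replicate 1 peak had a column 7 of 21 to 30, 82.3% were open in replicate 1 alone. The highest of the 65 were Olfr1121 (66), Olfr317 (64) and Olfr1286 (63). With the shortened list 11 remained. Vomeronasal receptors gave 10 of 329, led by Vmn1r1 (63), with 4 open in both and 8 in replicate 2 alone. These are large families of similar genes, so the placement of their reads carries the same limit as for the protocadherins.

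Several classes of genes used in most cells had shares below the 7.08% of all genes. Ribosomal protein genes gave 1 of 174 (0.575%), Rps27rt (42). Proteasome and ubiquitin genes gave 1 of 148, Usp44 (57), a deubiquitinase, and spliceosome and helicase genes 1 of 118, Ddx58 (56), which encodes the RNA sensor RIG-I and not a splicing factor. Respiratory chain genes gave 2 of 100, Ndufa13 (42) and Cox8b (30), a subunit of muscle and brown fat. None of 15 housekeeping genes was open in replicate 1 alone and all 15 were open in both, but the interval of 0 to 20.4% holds the share of all genes. The same is so of replication-dependent histone genes, with 1 of 67 (interval 0.264 to 7.98%), Hist1h1b (72). Zinc finger genes, a large family of transcription factors, gave 9 of 472 (1.91%, 1.01 to 3.58), with Zfp423 (74) the highest, and 58 of them were open in neither.

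**Figure D4:**
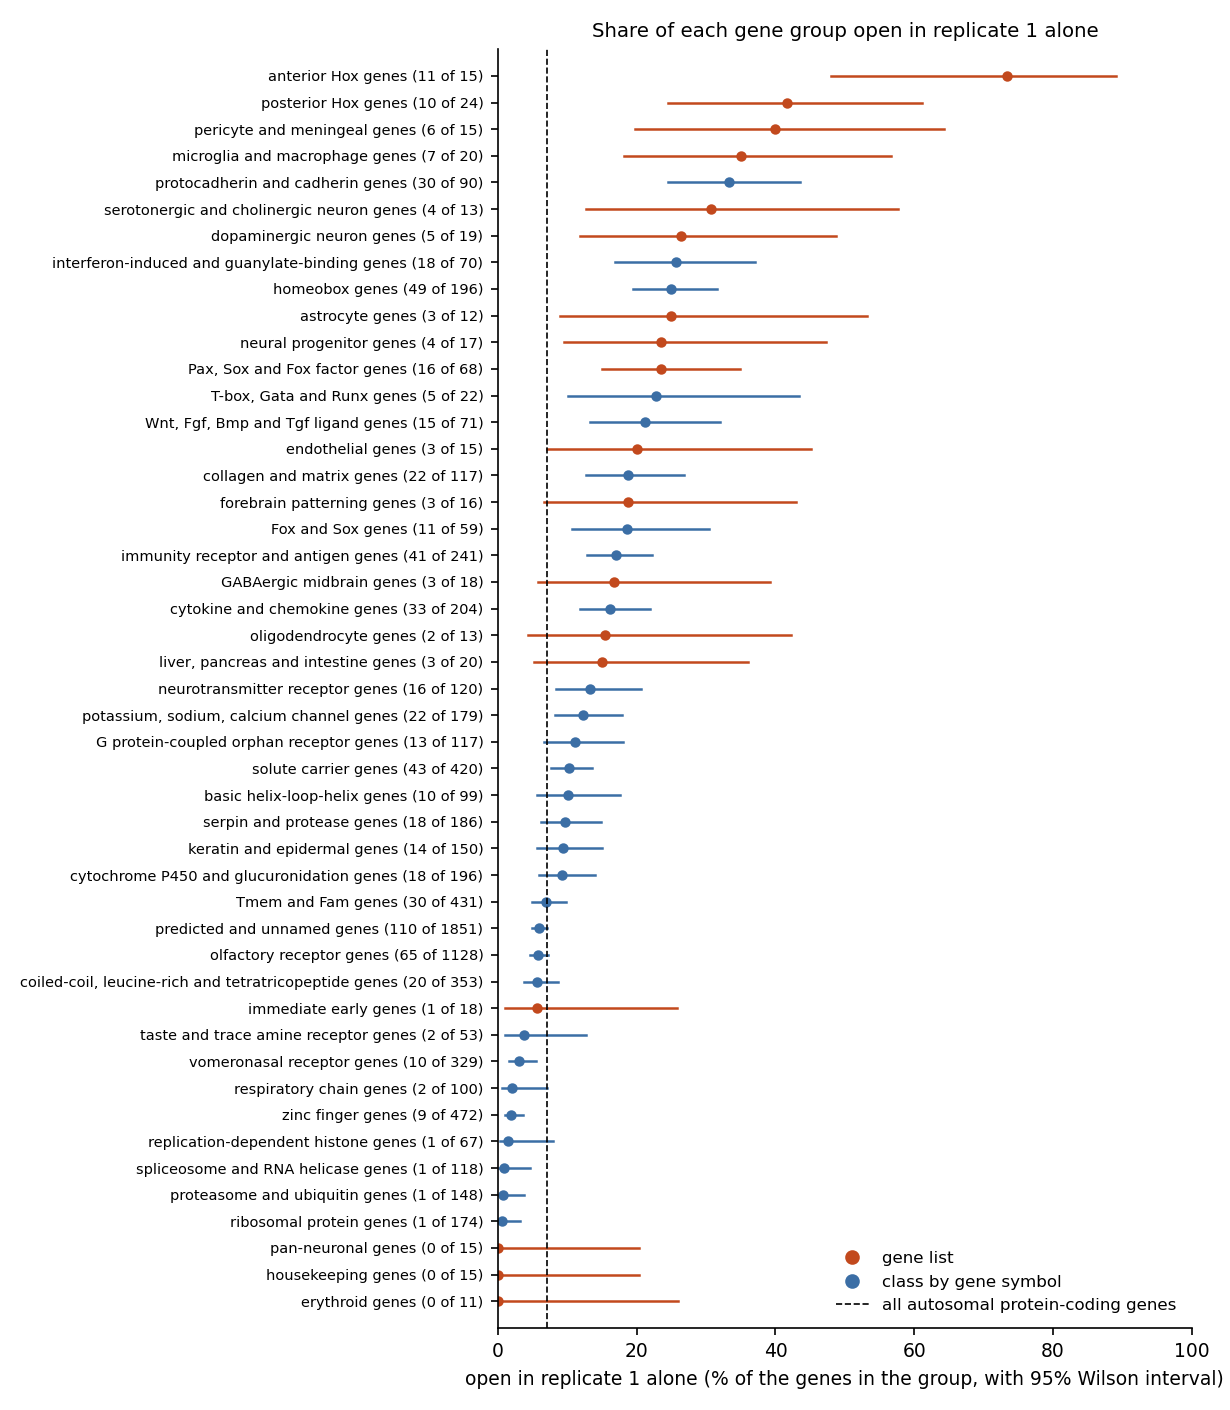
Percentage of each gene group open in replicate 1 alone, with its 95% Wilson interval, for 18 gene lists and 29 classes by gene symbol, counts in parentheses. The dashed line marks the 7.08% of all genes. Hox genes stand at the top with 11 of 15 and 10 of 24, and pan-neuronal, housekeeping and erythroid genes at the bottom with 0 of 15, 0 of 15 and 0 of 11, with intervals that hold the 7.08%.

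Peaks at these promoters lay less tightly on the start site. The strongest replicate 1 peak covered a start site at 43.1% (40.6 to 45.7) of promoters open in replicate 1 alone, against 60.5% (59.7 to 61.3) of those open in both. It lay over 250 bp away at 17.4% (15.5 to 19.4) against 7.07% (6.65 to 7.53). Its midpoint was upstream of the nearest start site at 61.8% against 75.6%. The genes had a median of 3 annotated start sites against 5, and 25.6% against 10.6% had a single one. Gene length had a median of 16.8 kb against 25.9 kb. Over all genes these values were 3, 21.2% and 17.6 kb, nearer to genes open in replicate 1 alone than to those open in both. The rule counts a peak at any start site, so the number of start sites bears on it by construction. Another protein-coding gene started within 500 bp of the peak at 4.61% (3.66 to 5.81) of promoters open in replicate 1 alone and at 18.3% (17.6 to 18.9) of those open in both.

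Shares of short sequence words under the strongest peak, searched on both strands in 1451 distinct peaks of the set and 11987 at promoters open in both, are given next. GGGCGG, the box of SP and KLF factors, occurred in 28.5% (26.2 to 30.8) against 54.2% (53.3 to 55.1). CCGGAAG, an ETS site, occurred in 1.72% against 13.3%, and CCAAT in 19.5% against 30.4%. The E-box CANNTG, bound by basic helix-loop-helix factors, occurred in 55.9% (53.3 to 58.4) against 37.3% (36.4 to 38.2), and its form CAGCTG, included in that count, in 17.9% against 8.90%. TATAAA occurred in 4.55% against 1.93% and the homeodomain word TAATTA in 2.41% against 0.601%. When both sets were limited to a column 7 of 32 to 55, leaving 744 and 517 peaks, most of the values came closer. GGGCGG then occurred in 30.2% against 30.8%, CCGGAAG in 1.88% against 2.71%, CAGCTG in 17.3% against 15.9% and TATAAA in 4.70% against 4.26%, each within the interval of the other set. CANNTG occurred in 54.6% (51.0 to 58.1) against 49.5% (45.2 to 53.8), each outside the interval of the other. CCAAT, which was lower in the whole set, occurred in 18.4% (15.8 to 21.4) against 15.1% (12.3 to 18.4), and TAATTA in 2.69% (1.75 to 4.12) against 1.55% (0.786 to 3.02). Of 20 words searched, the dinucleotide CG among them, 14 had shares that each lay outside the interval of the other over all peaks, and 2, CANNTG and CG, did so in the limited range.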

How the data were processed

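Peak and hotspot lists of 2 DNase-seq libraries of newborn mouse midbrain were used as deposited. Per the text deposited beside the lists, the authors derived each list from the filtered alignment of 1 biological replicate on mm10, so peaks were called per library. The sources used here do not give the aligner, the caller, thresholds or read totals. Column 7 of a peak is a deposited signal in whole numbers, used here only within its own list. For hotspots the authors give −log10 q, with a lowest value of 1.30 and with 100 for the strongest class. Longer lists and higher depth can place more promoters in the replicate with the longer list.

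Repeated positions were kept once. Promoters were all 90310 start sites of the transcripts of 20807 protein-coding genes on 19 autosomes (GENCODE M21), and any base of a peak within 500 bp counted. CpG observed/expected ratios and sequences were read from the RefSeq copy of GRCm38.p6, and sequence words were matched exactly on both strands. Shares have 95% Wilson intervals. Scripts used Python 3.11.15, numpy 2.4.6, pandas 2.3.3 and matplotlib 3.10.9, and placement of peaks was tested on simulated intervals. The members, gene lists, symbol classes, words and alternatives were chosen with earlier results of these data known, so no list supports another result. Of the listed symbols 9 were not among autosomal protein-coding genes.

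Named genes were the 20 with the highest column 7, up to 3 with the highest column 7 in each list or class, the 6 with the strongest replicate 2 hotspots, the 5 strongest without one, those with the 4 lowest and 4 highest CpG ratios, and the 3 on either side of the 500 bp limit, plus the tissue markers. Further members of the Hox, dopaminergic, progenitor and microglia lists were named after their values were seen, and some genes the rule names are not reported here. Promoter windows of 250 bp and 1000 bp, other start sites, shorter lists and other evidence in replicate 2 were tried as alternatives.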

Additional observations from a re-analysis of the deposited data

How the results depend on the processing

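The number of promoters open in replicate 1 alone stayed between 1039 and 1536 in 8 of 9 alternatives and was 699 with the replicate 1 list shortened to the 122813 strongest peaks (column 7 of at least 42), all of them among the 1474. With that list the median CpG ratio was 0.405 and the median column 7 was 56, as construction requires of the second. With the stronger 50% of each list these were 0.408 and 59, over 1039 genes of which 635 belong to the 1474. The median CpG ratio was 0.386 with a 250 bp window, 0.293 with 1000 bp and 0.395 with the 5′ end of the gene as the one start site. Among promoters whose nearest replicate 2 peak was over 1000 bp away, an alternative chosen after seeing the data, it was 0.317. In every alternative it stayed under the 0.720 given above for promoters open in both. That value belongs to the 500 bp rule with the full lists and was not recomputed for the alternatives. The share with a replicate 2 hotspot within 500 bp was 17.9% with the 250 bp window, 0.0670% with 1000 bp, 22.8% with the 5′ end alone, 8.73% with starts of protein_coding transcripts, 4.58% with the shortened list, 6.89% with peak midpoints, 41.2% with the stronger 50% and 0.0802% beyond 1000 bp. The windows, start sites, peak midpoints and the setting beyond 1000 bp fix by construction how near a replicate 2 peak may lie. The stronger 50% dropped the weaker replicate 2 peaks but kept every replicate 2 hotspot, so its higher share largely follows from construction. For the other moved values the cause was not tested. Over the 47 gene groups, the 1000 bp window left every share inside its interval. The shortened list can only lower a share by construction, and it took the share of all genes from 7.08% to 3.36%. With it 29 group shares fell below the interval from the full list. Groups above the share of all genes numbered 31 each time. Of those under the shortened list, 29 were above it in the report too, so 2 groups left and 2 joined. Leaving out a replicate was not possible, since the rule needs both libraries. No paired analysis was possible because the labels give 1 group. Read depth is unknown, so no promoter can be called closed in replicate 2.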
